A study of Homo sapiens with 12 samples.

Results

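The ABC transporters are a family of proteins built around a shared ATP-binding cassette, and their genes were followed here in 2 human leukaemia lines before and after a kinase inhibitor. Members were taken as the genes whose symbol is ABC, a subfamily letter from A to G and a number, and whose listed transcript type is protein coding. Described here are 38 such genes of the 36041 in the count table: 11 in subfamily A, 6 in B, 9 in C, 3 in D, 1 in E, 3 in F and 5 in G. A further 4 entries with such symbols had no coding transcript listed, under ABCA8, ABCC8 and ABCC13, and were left out. MOLM13 and MV411 (also written MV4-11) are lines of acute myeloid leukaemia, and both carry FLT3-ITD, an internal tandem duplication in the receptor kinase gene FLT3. Each line received the solvent DMSO or SGI-7079, a small-molecule kinase inhibitor known for its action on AXL, at 10 nM for 24 h. The study asked what the compound does to transcription in cells with mutant FLT3. There were 3 libraries in each of the 4 groups. Each line was established from 1 patient, so a difference between the lines is one between these 2 lines. Replicates are described as separate samples, with no statement that they were separate cultures. The p-values therefore rest on the spread among these libraries alone, and that spread may be technical.

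Most ABC proteins bind and split ATP to push a substrate across a membrane, and the subfamilies differ in substrate and place. Subfamily A moves lipids, B and D work largely in mitochondria, lysosomes, peroxisomes and the plasma membrane, C exports conjugated and anionic compounds, and G exports sterols and drugs. Subfamilies E and F have the cassette but no membrane part, and act on ribosomes and translation. In leukaemia the family is best known for drug efflux, by ABCC1 and ABCG2 among others.

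The libraries held between 52352252 and 61862017 counts, so that 3 counts corresponded to 0.048 to 0.057 CPM (counts scaled to library size). This sets the floor of detection for counting error alone. It was computed from total counts, whereas all other CPM use the adjusted library sizes described under processing, so the scales differ slightly. The summed level of 10 myeloid markers was 580 to 595 FPKM (the authors' read density, scaled to gene length and depth) in MOLM13 DMSO and 683 to 696 FPKM in MOLM13 with SGI-7079. In MV411 it was 1267 to 1302 FPKM in DMSO and 1370 to 1399 FPKM with the compound. FPKM are not scaled as the tested counts are. For ABCC1 in MV411, treated FPKM were 1.09 times those in DMSO, where the count-based fold was 1.01. In MOLM13 these values for ABCC1 were 1.17 and 1.11. The sums alone therefore do not give the size of a rise, and in MV411 they do not show one. By counts, the 10 markers had a median log2 fold change of 0.13 in MOLM13 and 0.078 in MV411. The medians of all genes tested were 0.054 and 0.11. The colony-stimulating factor receptor gene CSF1R, 1 of the 4 that rose in MOLM13 and of the 5 that rose in MV411 (2 fell in each line), rose by 2.44 ± 0.06 (log2, SE) in MOLM13 and by 1.44 ± 0.05 in MV411. Of the markers of other lineages, ITGA2B, the one megakaryocyte marker measured, was at 1.71 to 1.96 FPKM in MV411 DMSO and 4.23 to 4.88 FPKM in MV411 with SGI-7079. The B cell, T cell, erythroid, epithelial and fibroblast lists each summed to at most 1.53 FPKM in any library, and the T cell marker measured, CD3D, was at 0 in all MV411 libraries. The part of any of these shifts in the results below was not tested, and in bulk RNA a change in the make-up of the culture and a change in RNA per cell cannot be told apart.

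Levels differed by orders of magnitude within the family. Of the 38 members, 16 reached 1 FPKM in at least 1 group, 7 averaged at least 10 FPKM over the 12 libraries, and 11 stayed under 0.05 FPKM in each group. The most abundant per unit of length were ABCB10, a protein of the inner mitochondrial membrane tied to haem synthesis, at 34.4 FPKM, ABCF1 at 32.8 FPKM and ABCE1 at 32.0 FPKM. These 3 means are close, and their order changed between groups. ABCF1 at 44.8 ± 1.2 FPKM (SD, n = 3) and ABCE1 at 42.5 ± 0.37 FPKM were above ABCB10 at 34.8 ± 0.90 FPKM in MOLM13 DMSO, whereas ABCB10 at 45.0 ± 3.1 FPKM led in MV411 DMSO. Next came ABCA2 at 24.6, ABCF2 at 21.6, ABCA7 at 18.4 and ABCF3 at 10.1 FPKM as means over the libraries. ABCC10, ABCC4, ABCC1, ABCB8, ABCD3, ABCC5, ABCD4 and ABCC6 followed, between 7.32 and 1.39 FPKM. The drug exporter ABCC1 was thus present in both lines, at 4.47 ± 0.16 FPKM in MOLM13 DMSO and 5.95 ± 0.42 FPKM in MV411 DMSO. Another known drug exporter, ABCG2, had 0 counts in 11 libraries and 5 counts in the third MV411 library with SGI-7079. ABCG1, which loads cholesterol onto high-density lipoprotein, had 0 counts in every MOLM13 library and at most 5 in an MV411 library.

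**Figure D1:**
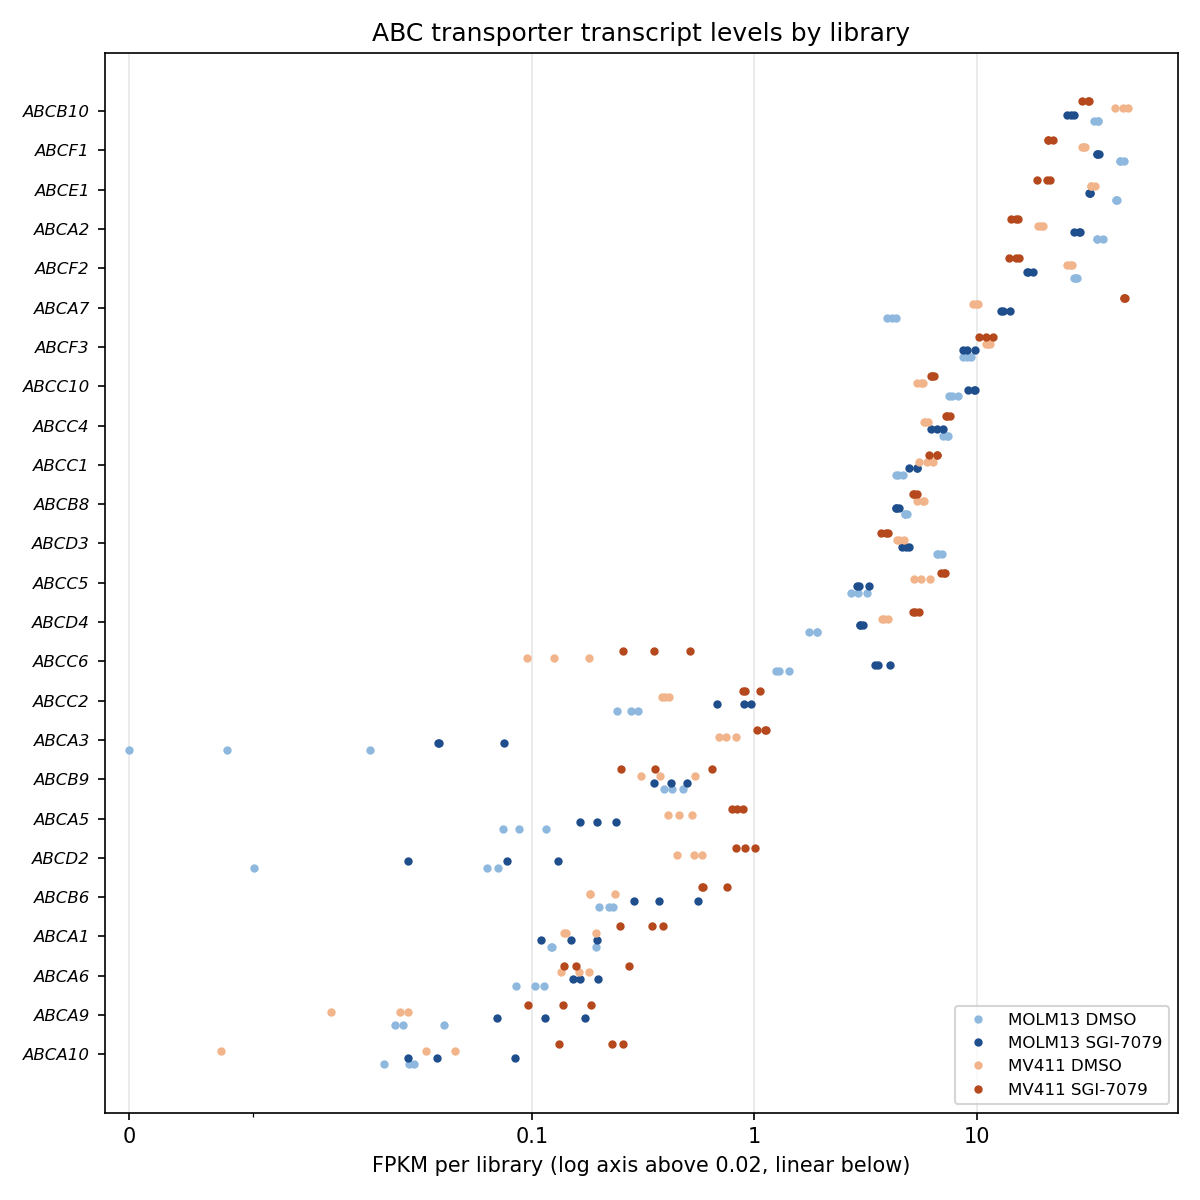
FPKM in each library (points, coloured by group) for the 25 members with at least 300 counts, on an axis that is logarithmic above 0.02 and linear below, ordered by their mean over all 12 libraries. ABCB10, ABCF1 and ABCE1 lead with means of 34.4, 32.8 and 32.0 FPKM, and the MV411 libraries with SGI-7079 put ABCA7 at 46.0 FPKM on average.

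The filter on low counts kept 29 members. The 9 that did not pass were ABCA4, ABCA12, ABCA13, ABCC3, ABCC9, ABCG1, ABCG2, ABCG4 and ABCG8, none with more than 16 counts in any library. Among the 29, ABCB4, ABCB11, ABCC11 and ABCG5 had under 300 counts over all libraries. ABCB4, the phospholipid exporter of bile, had at most 38 counts in a library, ABCB11, the bile salt exporter, at most 39, ABCC11 at most 13 and the sterol exporter ABCG5 at most 16. No fold change is given for these 4, none of which passed a treatment test. A gene is said to rise or fall where the adjusted p of edgeR's quasi-likelihood test (Benjamini-Hochberg over 21438 genes) was under 0.05, and is called higher or lower where its log2 fold change was also beyond 1.

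SGI-7079 moved 18 of the 29 tested members in each line. In MOLM13, 10 rose and 8 fell, beside 23.2% and 23.6% of all genes tested. In MV411, 11 rose and 7 fell, beside 27.2% and 24.3%. Of genes with a coding transcript, which all members have, 24.8% rose and 34.4% fell in MOLM13, and 30.4% and 34.2% in MV411. The median log2 fold change of the 29 was 0.14 in MOLM13 and 0.22 in MV411, against 0.054 and 0.11 for all genes tested. For genes with a coding transcript it was -0.047 and 0.0062. Called higher were 6 members in each line, while every fall that passed was smaller than the fold threshold. Of all genes, 8.94% and 3.44% were called higher and lower in MOLM13 and 11.0% and 6.08% in MV411. All 18 that passed had no overlap between treated and DMSO libraries in that line. In MOLM13, 12 members had all treated libraries above all DMSO libraries and 8 had all below, beside 28.7% and 27.4% of all genes. In MV411 these numbers were 13 and 7, beside 33.8% and 27.4%.

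Most of these movements were shared by the lines, though the share of all genes that moved the same way in both was not counted. ABCA5, ABCA7, ABCA9, ABCB6, ABCC2, ABCC6 and ABCD4 rose in both, and ABCA2, ABCB8, ABCB10, ABCD3, ABCE1, ABCF1 and ABCF2 fell in both. ABCC4 fell in MOLM13 and rose in MV411. ABCA3, ABCA6 and ABCC10 rose in MOLM13 and did not pass in MV411, and ABCA1, ABCA10 and ABCC5 the reverse. ABCB9, ABCC1, ABCD2 and ABCF3, besides the 4 sparse genes, passed in neither line. The members that rose lay mostly low in the range of levels. Of the 18 members averaging under 5 FPKM, 8 rose and 1 fell in MOLM13, against 9 and 1 in MV411. Of the 11 at or above 5 FPKM, 2 rose and 7 fell in MOLM13, against 2 and 6 in MV411. Genes with a coding transcript showed part of the same split: at or above 5 FPKM, 24.5% rose and 52.4% fell in MOLM13 and 27.7% and 53.2% in MV411, and under 5 FPKM 25.1% rose and 18.5% fell in MOLM13 and 32.8% and 17.5% in MV411.

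**Figure D2:**
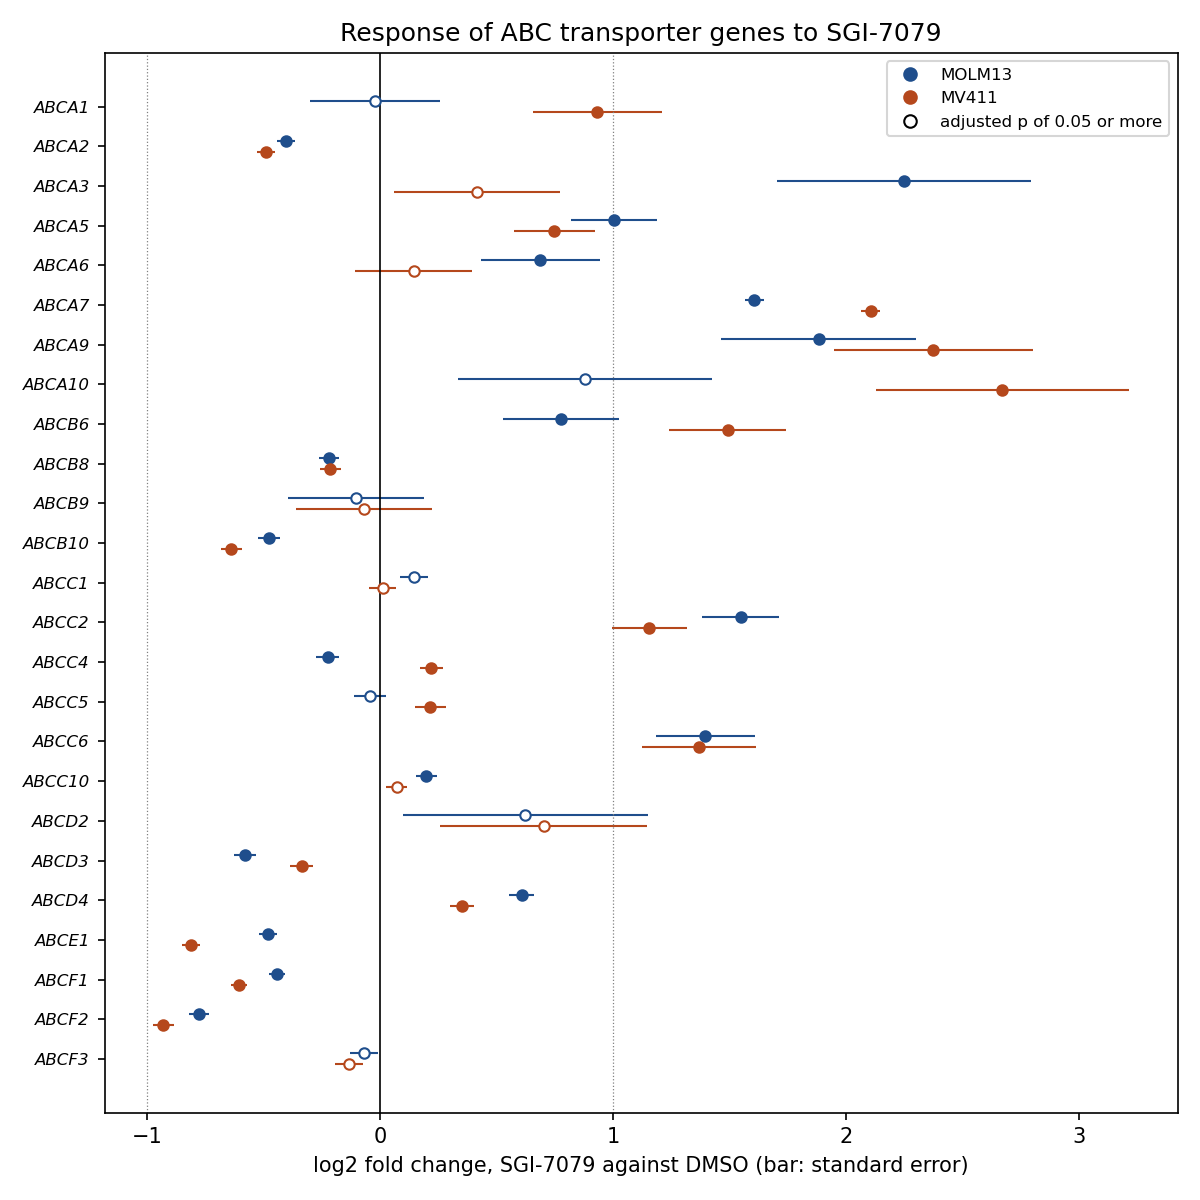
Log2 fold change with SGI-7079 against DMSO, with its standard error, for the members with at least 300 counts, in MOLM13 and MV411, grouped by subfamily; filled points passed an adjusted p of 0.05. ABCA7 and ABCA9 lie far to the right in both lines, and ABCE1, ABCF1 and ABCF2 to the left.

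Of the 8 tested members of subfamily A, 5 rose and 1 fell in each line, and 4 were called higher in MOLM13 and 3 in MV411. Among all genes tested, 23.2% rose, 23.6% fell and 8.94% were called higher in MOLM13. For MV411 these shares were 27.2%, 24.3% and 11.0%. ABCA7 (chr19:1039997-1065569, plus strand, hg38), a phospholipid exporter also linked to phagocytosis, had the most precise large change. In MOLM13 it was at 43.9, 47.4 and 45.8 CPM in the DMSO libraries and at 137, 146 and 135 CPM with SGI-7079. In MV411 it was at 102, 99.4 and 107 CPM in DMSO and at 451, 438 and 439 CPM with the compound. Every treated library lay far above every DMSO library of its line, and the MV411 DMSO libraries lay between the MOLM13 groups. The rise was 3.04-fold in MOLM13 (log2 1.61 ± 0.04, SE; adjusted p = 7.40e-12) and 4.30-fold in MV411 (2.10 ± 0.04; adjusted p = 1.49e-13). It was larger in MV411, by 0.50 ± 0.06 on the log2 scale (adjusted p = 3.29e-05). ABCA7 took 2.40% to 2.57% of the counts of the 38 members in MOLM13 DMSO and 8.54% to 9.36% with SGI-7079. In MV411 its share went from between 6.60% and 6.93% to between 28.4% and 28.9%. The 38 members together held 0.172% ± 0.0020 (SD, n = 3) of all counts in MOLM13 DMSO and 0.155% ± 0.0022 with SGI-7079, and 0.152% ± 0.0010 and 0.165% ± 0.0013 in MV411. Without ABCA7 the share was lower in the treated group of both lines, at 0.167% ± 0.0018 and 0.141% ± 0.0021 in MOLM13 and 0.142% ± 0.0010 and 0.118% ± 0.0014 in MV411.

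**Figure D3:**
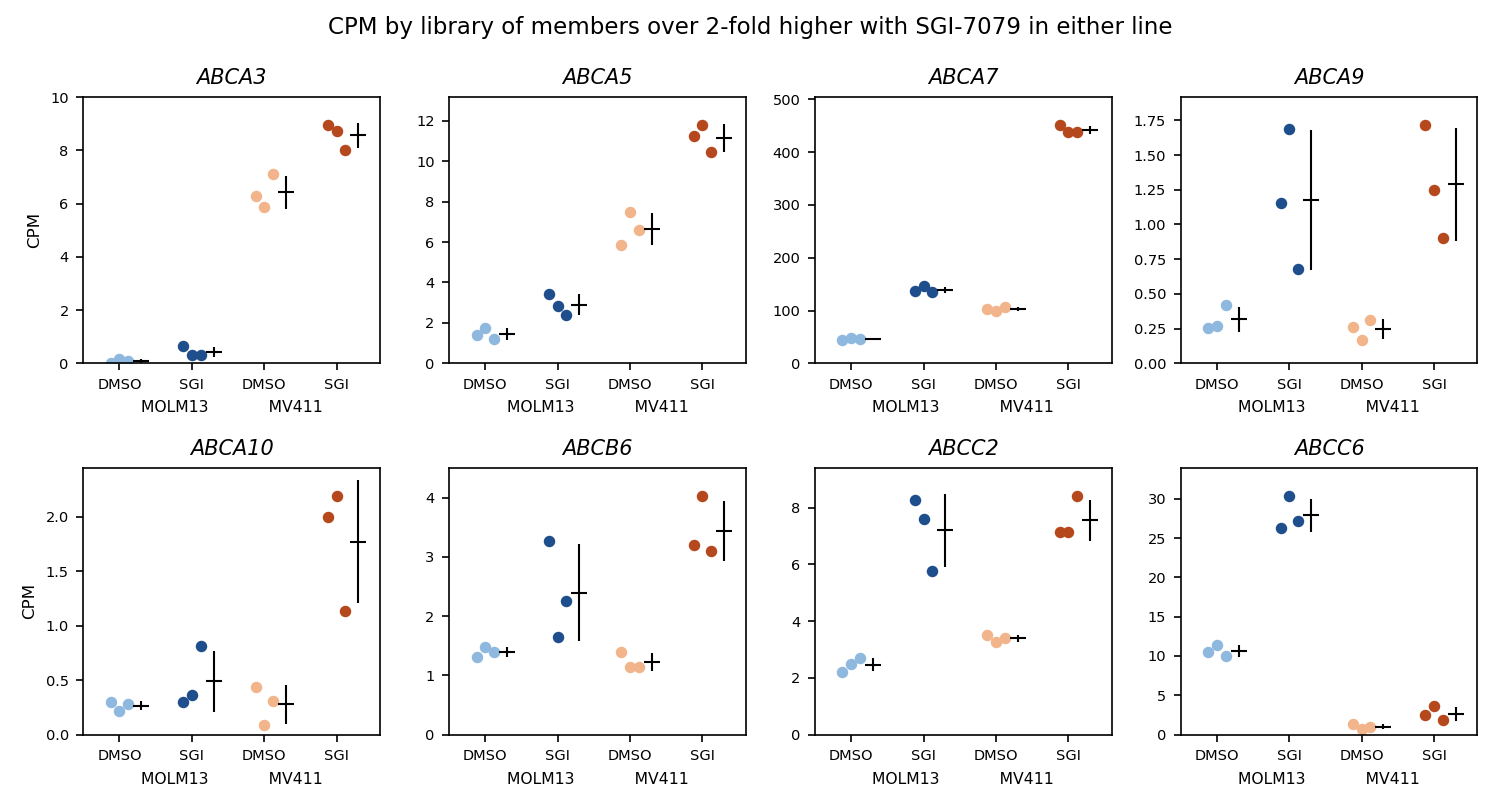
CPM in each library for members called higher in at least 1 line; points are libraries, and the black mark is the mean ± SD of the 3 libraries of a group. ABCA7 separates treated from DMSO libraries in both lines, at 135 to 146 against 43.9 to 47.4 CPM in MOLM13 and at 438 to 451 against 99.4 to 107 CPM in MV411.

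The genes ABCA9, ABCA6, ABCA10 and ABCA5 lie side by side on the minus strand of chromosome 17, from base 68974488 to base 69327182 (hg38), and encode related lipid-transporter-like proteins of which ABCA5 is known from late endosomes and lysosomes. All 4 had low counts, and the tests were less precise than for ABCA7. ABCA9 (chr17:68974488-69060949) was at 0.258, 0.271 and 0.423 CPM in MOLM13 DMSO and at 1.15, 1.69 and 0.682 CPM with SGI-7079. The MV411 libraries held 0.262, 0.167 and 0.312 CPM and, with the compound, 1.72, 1.25 and 0.902 CPM. The groups did not overlap in either line, and ABCA9 rose 3.68-fold in MOLM13 (log2 1.88 ± 0.42; adjusted p = 0.00205) and 5.18-fold in MV411 (2.37 ± 0.43; adjusted p = 0.000326). These levels rest on 14 to 24 counts in a MOLM13 DMSO library and 37 to 103 in a treated one.

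ABCA10 (chr17:69147214-69244846) was at 0.295, 0.217 and 0.282 CPM in MOLM13 DMSO and at 0.297, 0.360 and 0.811 CPM with SGI-7079. MV411 values were 0.437, 0.0835 and 0.312 CPM in DMSO and 1.99, 2.19 and 1.13 CPM with the compound. All treated libraries were above all DMSO libraries in both lines, but in MOLM13 most of the gap came from the third treated library. ABCA10 rose 6.36-fold in MV411 (log2 2.67 ± 0.54; adjusted p = 0.000911), while its MOLM13 value of 0.88 ± 0.55 did not pass (adjusted p = 0.215). The difference between the lines, 1.79 ± 0.76, did not pass either (adjusted p = 0.125). ABCA5 (chr17:69244311-69327182) was at 1.40, 1.76 and 1.18 CPM in MOLM13 DMSO and at 3.45, 2.83 and 2.42 CPM with SGI-7079. For MV411 they were 5.86, 7.47 and 6.60 CPM and, treated, 11.2, 11.8 and 10.4 CPM. It rose in both lines without overlap, by 1.00 ± 0.19 (adjusted p = 0.000492) and 0.75 ± 0.17 (adjusted p = 0.00250) on the log2 scale, and its MV411 DMSO libraries were above the treated MOLM13 libraries. ABCA6 passed in MOLM13 at 0.69 ± 0.26 (adjusted p = 0.0415), a call that was lost without any 1 of the 6 MOLM13 libraries or the third MV411 DMSO library, and was at 0.14 ± 0.25 in MV411. ABCA10 and ABCA5 share 536 bases at their ends, where reads may be counted for either. Of the nearest tested genes on each side, named for their position, MAP2K6 rose by 1.38 in both lines, and FAM20A rose by 2.14 ± 0.77 in MV411 and was at 1.64 ± 0.80 in MOLM13 (adjusted p = 0.114).

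The promoters of ABCA7 and of 2 of the adjacent chromosome 17 genes are shown because these genes had large rises and their windows differ in base composition. RefSeq promoter sequences of GRCh38.p14, from 250 bases before to 50 bases after the start, were matched for 33 of the 38 members; none is given for ABCA4, ABCB4, ABCC1, ABCC3 and ABCG1. The RefSeq start can differ from that of the count table, by 110 bases for ABCA7. Some others differed by more, such as ABCC10 by 175, ABCC9 by 1117 and ABCG8 by 7029 bases. The windows of ABCC9 and ABCG8 therefore do not cover the start in the count table. Capitals mark CACGTG (the E-box of MYC and TFEB type factors), CCGGAAG (an ETS-type motif) or GGGCGG (the GC box), on either strand. The 5′ to 3′ sequences on the gene's own strand are those of chr19:1039857-1040156 (plus), chr17:69060878-69061177 (minus) and chr17:69244799-69245098 (minus).
ABCA7: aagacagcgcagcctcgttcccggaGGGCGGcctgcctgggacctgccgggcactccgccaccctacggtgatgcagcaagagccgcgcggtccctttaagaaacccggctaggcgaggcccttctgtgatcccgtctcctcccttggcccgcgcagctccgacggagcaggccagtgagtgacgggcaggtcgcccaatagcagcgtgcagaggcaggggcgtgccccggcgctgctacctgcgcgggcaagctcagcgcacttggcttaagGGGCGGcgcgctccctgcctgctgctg
ABCA9: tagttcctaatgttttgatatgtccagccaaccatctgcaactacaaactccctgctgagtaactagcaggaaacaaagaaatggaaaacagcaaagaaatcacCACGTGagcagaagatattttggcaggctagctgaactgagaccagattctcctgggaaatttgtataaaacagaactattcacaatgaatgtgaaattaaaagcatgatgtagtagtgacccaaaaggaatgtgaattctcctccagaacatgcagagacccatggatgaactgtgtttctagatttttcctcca
ABCA10: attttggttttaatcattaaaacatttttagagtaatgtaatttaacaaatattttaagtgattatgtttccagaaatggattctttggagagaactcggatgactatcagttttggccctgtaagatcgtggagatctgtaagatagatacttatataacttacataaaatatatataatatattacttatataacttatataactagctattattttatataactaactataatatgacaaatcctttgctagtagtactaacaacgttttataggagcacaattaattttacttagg
The ABCA7 window had a GC content of 70.0% and 2 GC boxes. The ABCA9 window had 39.7% and 1 E-box, and the ABCA10 window, at 25.0% the lowest of the 33, held none of the 3 motifs. The ABCA10 window also lies within the gene ABCA5, on the same strand. The E-box was in the windows of 6 of the 33 members (ABCA1, ABCA9, ABCB6, ABCB9, ABCC10 and ABCF1) and in 7.43% of 27305 promoters of the same length. Those 27305 were the first listed promoter of each gene, with no selection for coding genes. For a member, the promoter nearest to its start in the count table was taken, so the 2 sets are not matched. The GC box was in 17 of 33 members and 44.6% of all promoters, CCGGAAG in 4 and 10.7%, and TTCNNNGAA, the STAT-type motif, in 1 (ABCC5) and 7.88%. A motif here is a match of letters, and no binding was measured.

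ABCA3 (chr16:2275881-2340746), which loads surfactant lipids into the lamellar bodies of lung cells, was far higher in MV411 than in MOLM13. It was at 0, 0.181 and 0.0881 CPM in MOLM13 DMSO, which is 0, 10 and 5 counts, and at 0.647, 0.328 and 0.332 CPM with SGI-7079. In the other line, MV411, it stood at 6.30, 5.88 and 7.10 CPM in DMSO and at 8.95, 8.72 and 8.03 CPM with the compound. The treated libraries were above the DMSO libraries in both lines. In MOLM13 the rise of 2.25 ± 0.55 passed (adjusted p = 0.00384) at a level that stayed under 1 CPM, and it was lost when only the MOLM13 libraries were fitted (adjusted p = 0.0568). Without the second MOLM13 DMSO library it was 3.22. In MV411 the value of 0.42 ± 0.36 did not pass (adjusted p = 0.366), although it passed when only the MV411 libraries were fitted (0.35; adjusted p = 0.0336). ABCA1, which exports cholesterol to apolipoprotein A-I, was at 0.93 ± 0.28 in MV411 (adjusted p = 0.0116) and at -0.023 ± 0.28 in MOLM13. Its MV411 call was lost without the second DMSO, the first treated or the third treated MV411 library, at 0.77, 0.81 and 0.80.

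ABCA2 (chr9:137007234-137028915), a lipid transporter of endosomes and lysosomes, was the abundant member of the subfamily and went the other way. It was at 463, 486 and 459.8 CPM in MOLM13 DMSO and at 343, 357 and 365 CPM with SGI-7079. In MV411 it was at 243, 233 and 249.9 CPM and, treated, at 175, 164 and 177 CPM. The 4 groups formed 4 separate steps. ABCA2 fell 1.32-fold in MOLM13 (log2 -0.40 ± 0.04; adjusted p = 1.29e-06) and 1.41-fold in MV411 (-0.49 ± 0.04; adjusted p = 1.37e-07).

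The genes around lipid export moved in mixed directions. Of 12 measured nuclear receptors and other factors known to control ABC genes, MOLM13 had 6 that rose and 2 that fell, and MV411 had 5 that rose. TFEB, a regulator of lysosome genes, rose by 0.79 ± 0.06 and 1.16 ± 0.06, and SREBF2, the regulator of sterol synthesis, by 0.49 ± 0.03 and 0.28 ± 0.03, in MOLM13 and MV411. For 9 LXR target genes outside the family the numbers were 3 up and 3 down in MOLM13, against 5 and 3 in MV411. APOC1 rose by 1.08 ± 0.28 and 2.04 ± 0.28, while the desaturase gene SCD fell by 0.88 and 1.16. Among 12 genes of sterol uptake, storage and lysosomal export, MOLM13 had 5 that rose and 2 that fell, MV411 had 6 and 2, with the scavenger receptor gene CD36 up by 1.42 ± 0.08 and 0.99 ± 0.07. The medians of these lists were 0.19 and 0.20 for the regulators, 0.19 and 0.18 for the LXR targets and 0.088 and 0.13 for the sterol genes, beside 0.054 and 0.11 for all genes. The shares of all genes tested that rose and fell were 23.2% and 23.6% in MOLM13 and 27.2% and 24.3% in MV411.

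In subfamily B, 6 members were tested, of which 1 rose and 2 fell in each line. Among all genes tested, 23.2% rose and 23.6% fell in MOLM13, and 27.2% and 24.3% in MV411. ABCB10 (chr1:229516582-229558707) was at 175, 172 and 165 CPM in MOLM13 DMSO and at 123, 117 and 128 CPM with SGI-7079. The MV411 libraries held 209, 219 and 195 CPM and, treated, 129, 136 and 135 CPM. The groups of a line did not overlap, and ABCB10 fell 1.39-fold (log2 -0.48 ± 0.05; adjusted p = 1.29e-06) and 1.56-fold (-0.64 ± 0.05; adjusted p = 4.60e-08). ABCB6 (chr2:219209772-219218958), a transporter linked to porphyrins, was at 1.31, 1.48 and 1.39 CPM in MOLM13 DMSO and at 3.27, 1.65 and 2.25 CPM with SGI-7079. MV411 values were 1.40, 1.14 and 1.13 CPM and, treated, 3.20, 4.02 and 3.09 CPM. It rose by 0.78 ± 0.25 in MOLM13 (adjusted p = 0.0202), a call that was lost without the first DMSO (0.74) or the first treated (0.49) MOLM13 library, and by 1.49 ± 0.25 in MV411 (adjusted p = 0.000189). The whole of ABCB6 lies inside ENSG00000284820 on the same strand, which rose by 1.09 ± 0.24 and 1.02 ± 0.23, so the reads of both genes cannot be told apart with certainty.

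ABCB8, of the inner mitochondrial membrane, fell by 0.22 ± 0.04 in MOLM13 and by 0.21 ± 0.04 in MV411. ABCB9, a lysosomal peptide transporter, was at -0.11 ± 0.29 and -0.071 ± 0.29. Its relatives TAP1 and TAP2, which carry peptides into the endoplasmic reticulum for antigen presentation, were family members under other symbols. TAP2 fell by 0.38 ± 0.04 and 0.50 ± 0.04, and TAP1 was at 0.091 ± 0.05 and 0.059 ± 0.05, giving a median of -0.15 and -0.22 for the pair. For 16 genes of mitochondrial iron-sulphur and haem synthesis the numbers were 2 up and 6 down in MOLM13, with a median of -0.091, against 4 and 8 in MV411, with a median of -0.21. Among all genes tested, 23.2% rose and 23.6% fell in MOLM13, and 27.2% and 24.3% in MV411. CPOX, an enzyme of haem synthesis, fell by 0.53 ± 0.06 and 0.66 ± 0.06, GLRX5 by 0.48 ± 0.06 and 1.02 ± 0.06, and the iron importer gene SLC25A37 rose by 0.63 ± 0.03 and 0.31 ± 0.03.

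Subfamily C, the multidrug resistance proteins and their kin, had 7 tested members, of which 3 rose and 1 fell in MOLM13 while 4 rose in MV411. The shares of all genes tested that rose and fell were 23.2% and 23.6% in MOLM13 and 27.2% and 24.3% in MV411. ABCC2 (chr10:99782640-99852044), which exports glucuronide and glutathione conjugates into bile, was at 2.21, 2.50 and 2.69 CPM in MOLM13 DMSO and at 8.26, 7.60 and 5.77 CPM with SGI-7079. In the other line, MV411, it stood at 3.52, 3.27 and 3.40 CPM and, treated, at 7.13, 7.15 and 8.40 CPM. Every treated library was well above every DMSO library. The rise was 2.92-fold in MOLM13 (log2 1.55 ± 0.16; adjusted p = 3.30e-06) and 2.22-fold in MV411 (1.15 ± 0.16; adjusted p = 3.48e-05), and the lines differed by -0.39 ± 0.23, which did not pass (adjusted p = 0.272). ABCC6 (chr16:16149565-16223494), the liver protein whose loss causes pseudoxanthoma elasticum, was at 10.5, 11.4 and 9.95 CPM in MOLM13 DMSO and at 26.2, 30.3 and 27.1 CPM with SGI-7079. In MV411 it was at 1.38, 0.718 and 0.969 CPM and, treated, at 2.50, 3.58 and 1.82 CPM. The groups of a line did not overlap, and all MV411 libraries were below all MOLM13 libraries. ABCC6 rose by 1.39 ± 0.21 in MOLM13 (adjusted p = 0.000101) and by 1.37 ± 0.25 in MV411 (adjusted p = 0.000323), from levels 10.4-fold apart. It has near-identical pseudogenes, ABCC6P1 and ABCC6P2, whose group means were at most 0.197 CPM in MOLM13, and reads shared with them are uncertain.

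The abundant C members moved little. ABCC4, an exporter of cyclic nucleotides and nucleotide drugs, was at 74.3, 69.6 and 73.2 CPM in MOLM13 DMSO and at 61.9, 57.6 and 66.1 CPM with SGI-7079. The MV411 libraries held 54.5, 56.4 and 54.6 CPM and, treated, 66.5, 63.0 and 63.0 CPM. It fell in MOLM13 by 0.23 ± 0.05 (adjusted p = 0.00163) but rose in MV411 by 0.22 ± 0.05 (adjusted p = 0.00184), and the difference of 0.44 ± 0.07 passed (adjusted p = 0.000441). The MV411 call was lost without the first DMSO (0.14) or the first treated (0.12) MV411 library. ABCC1, the exporter of glutathione conjugates and many drugs, was at 0.14 ± 0.06 in MOLM13 (adjusted p = 0.0654) and 0.0096 ± 0.06 in MV411. In MOLM13 it passed without the first treated MOLM13 library (0.19), or without the second (0.15) or the third (0.14) MV411 DMSO library. ABCC10 (chr6:43427366-43450427), a relative of ABCC1 that also exports drugs, was at 70.5, 76.2 and 71.8 CPM in MOLM13 DMSO and at 79.8, 85.4 and 85.3 CPM with SGI-7079. For MV411 they were 49.1, 46.9 and 50.8 CPM and, treated, 52.9, 51.0 and 50.2 CPM. The groups did not overlap in MOLM13 and overlapped in MV411. ABCC10 rose by 0.20 ± 0.04 in MOLM13 (adjusted p = 0.00226) and was at 0.070 ± 0.05 in MV411. ABCC5, another exporter of cyclic nucleotides, rose by 0.21 ± 0.07 in MV411 (adjusted p = 0.0157) and was at -0.045 ± 0.07 in MOLM13. That call was lost without any 1 of the 6 MOLM13 libraries, the second MV411 DMSO or the first treated MV411 library, with values between 0.084 and 0.14.

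Genes of glutathione conjugation and turnover went both ways: of 13 measured, MOLM13 had 5 up and 5 down (median 0.026), and MV411 had 4 and 6 (median -0.024). The transferase gene GSTM2 rose by 2.46 ± 0.12 and 3.23 ± 0.13, and LTC4S, which makes leukotriene C4, a substrate of ABCC1, by 1.34 ± 0.12 and 1.24 ± 0.11. GSTP1 fell by 0.40 and 0.48. Of 12 targets of NRF2 (the factor of the oxidative stress response) outside the family, MOLM13 had 3 up and 7 down (median -0.46), and MV411 had 5 and 6 (median -0.088). Beside these 2 lists, 23.2% of all genes tested rose and 23.6% fell in MOLM13, and 27.2% and 24.3% in MV411. HMOX1, the haem-degrading enzyme, rose by 1.71 ± 0.15 and 2.52 ± 0.13, and the cystine transporter gene SLC7A11 fell in MOLM13, by 1.52, but rose in MV411, by 2.15 ± 0.12.

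In subfamily D, whose members import fatty acids into peroxisomes or, in ABCD4, move cobalamin out of lysosomes, 3 members were tested, of which 1 rose and 1 fell in each line. Among all genes tested, 23.2% rose and 23.6% fell in MOLM13, and 27.2% and 24.3% in MV411. ABCD4 (chr14:74285269-74303055) was at 18.4, 19.7 and 19.8 CPM in MOLM13 DMSO and at 29.1, 29.8 and 29.3 CPM with SGI-7079. For MV411 they were 37.0, 36.2 and 39.2 CPM and, treated, 47.8, 49.4 and 46.3 CPM. It rose by 0.61 ± 0.05 (adjusted p = 4.96e-07) and 0.35 ± 0.05 (adjusted p = 5.56e-05), without overlap, and the effects differed by -0.25 ± 0.07 (adjusted p = 0.0260). This difference was lost without the third DMSO (-0.22) or the third treated (-0.23) MV411 library. Its lysosomal partner gene LMBRD1 rose by 0.56 ± 0.09 and 0.71 ± 0.09. ABCD3, the abundant peroxisomal membrane protein PMP70, was at 59.5, 58.1 and 61.2 CPM in MOLM13 DMSO and at 41.4, 39.5 and 38.6 CPM with SGI-7079. In the other line, MV411, it stood at 39.1, 36.9 and 36.6 CPM and, treated, at 28.8, 30.4 and 29.9 CPM. ABCD3 thus went opposite to ABCD4, and fell by 0.58 ± 0.05 (adjusted p = 2.26e-07) and 0.34 ± 0.05 (adjusted p = 3.66e-05). The difference of 0.24 ± 0.07 (adjusted p = 0.0189) was lost without any 1 of 9 libraries, all but the third MV411 DMSO library and the second and the third treated MV411 libraries, with values from 0.14 to 0.20. ABCD2, an importer of very long chain fatty acids, was at 0.0922, 0.507 and 0.458 CPM in MOLM13 DMSO and at 0.910, 0.197 and 0.535 CPM with SGI-7079. In MV411 it was at 3.64, 3.93 and 3.09 CPM and, treated, at 5.29, 6.32 and 5.71 CPM. The MOLM13 groups overlapped and the MV411 groups did not. Its values of 0.62 ± 0.52 (adjusted p = 0.368) and 0.70 ± 0.44 (adjusted p = 0.212) did not pass. Of 17 genes of peroxisomal import and beta-oxidation and of the cobalamin partners, MOLM13 had 6 up and 5 down (median 0.085), and MV411 had 8 and 3 (median 0.068). These counts stand beside the shares of all genes given above for the subfamily. PEX6, a peroxisome assembly gene, rose by 0.82 ± 0.05 and 0.26 ± 0.05, and the thiolase gene ACAA1 by 0.40 ± 0.05 and 0.67 ± 0.05.

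The ribosome-bound members of subfamilies E and F were abundant and fell together, except for ABCF3. ABCE1 (chr4:145098288-145129524), which splits ribosomes after termination, was at 311, 302 and 302 CPM in MOLM13 DMSO and at 218, 218 and 221 CPM with SGI-7079. The MV411 libraries held 219.7, 228 and 222 CPM and, treated, 119, 134 and 129 CPM. The treated MOLM13 libraries came to about the level of the MV411 DMSO libraries, and treated MV411 libraries were the lowest. ABCE1 fell 1.40-fold in MOLM13 (log2 -0.48 ± 0.04; adjusted p = 1.69e-07) and 1.76-fold in MV411 (-0.81 ± 0.04; adjusted p = 5.45e-10), and the fall was larger in MV411, by -0.33 ± 0.05 (adjusted p = 0.000582). ABCF1 (chr6:30571393-30597179), a partner of the initiation factor eIF2, was at 231, 226 and 238 CPM in MOLM13 DMSO and at 169, 168 and 174 CPM with SGI-7079. MV411 values were 146, 144 and 150.4 CPM and, treated, 101, 94.0 and 94.1 CPM. The 4 groups were again separate. ABCF1 fell by 0.44 ± 0.04 (adjusted p = 1.84e-07) and 0.61 ± 0.04 (adjusted p = 5.55e-09). The difference of -0.16 ± 0.05 (adjusted p = 0.0338) was lost without the third DMSO (-0.14), the second treated (-0.14) or the third treated (-0.15) MV411 library.

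ABCF2 (chr7:151211484-151227205), a related cassette protein without a membrane part, was at 167, 162 and 168 CPM in MOLM13 DMSO and at 95.4, 93.2 and 101 CPM with SGI-7079. For MV411 they were 150.1, 141 and 149 CPM and, treated, 78.6, 79.8 and 72.3 CPM. Of the members given a fold change, it had the largest falls, 1.71-fold (log2 -0.78 ± 0.04; adjusted p = 5.64e-09) and 1.91-fold (-0.93 ± 0.04; adjusted p = 5.21e-10). It lies almost wholly within the read-through gene ABCF2-H2BK1, which had group means of 2.17 to 5.72 CPM and was at 0.94 ± 0.39 and 1.03 ± 0.39. ABCF3 (chr3:184186095-184194012) was at 56.0, 53.2 and 51.3 CPM in MOLM13 DMSO and at 50.4, 54.1 and 48.7 CPM with SGI-7079. In the other line, MV411, it stood at 62.7, 63.7 and 61.6 CPM and, treated, at 62.2, 56.6 and 52.6 CPM. Treated and DMSO libraries overlapped in both lines. The values of -0.068 ± 0.06 (adjusted p = 0.394) and -0.13 ± 0.06 (adjusted p = 0.0804) did not pass, but the MV411 value passed without any 1 of 9 libraries, all but the third DMSO library and the second and the third treated MV411 libraries, with values from -0.27 to -0.19. ABCE1 shares 59.8% of its length with OTUD4 on the opposite strand, which was at -0.080 ± 0.06 and -0.20 ± 0.06.

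Partners of these proteins in ribosome release, recycling and translation control mostly fell too: of 12 measured, 10 fell and 2 rose in MOLM13, with a median of -0.44, against 8 and 2 in MV411, with a median of -0.53. EIF2S1 and EIF2S2, subunits of the eIF2 that ABCF1 binds, fell by 0.77 ± 0.04 and 0.80 ± 0.03 in MOLM13 and by 1.08 ± 0.04 and 0.73 ± 0.03 in MV411. The release factor genes GSPT1 and ETF1 fell by 0.62 ± 0.03 and 0.69 ± 0.03 in MOLM13 and by 0.88 ± 0.03 and 0.63 ± 0.03 in MV411. Of all genes with a coding transcript, 24.8% rose and 34.4% fell in MOLM13, and 30.4% and 34.2% in MV411. Among those at or above 5 FPKM, where ABCE1, ABCF1 and ABCF2 lie, 52.4% fell in MOLM13 and 53.2% in MV411. The promoters of ABCE1 and ABCF1 are shown as those of 2 abundant members that fell in both lines, from the plus strand of chr4:145098061-145098360 and chr6:30571192-30571491, with capitals as above.
ABCE1: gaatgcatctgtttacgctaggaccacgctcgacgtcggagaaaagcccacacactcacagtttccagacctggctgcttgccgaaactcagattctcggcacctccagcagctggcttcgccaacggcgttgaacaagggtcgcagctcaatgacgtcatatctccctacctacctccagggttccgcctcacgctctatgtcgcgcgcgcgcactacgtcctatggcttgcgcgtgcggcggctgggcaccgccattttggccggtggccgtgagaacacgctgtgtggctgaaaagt
ABCF1: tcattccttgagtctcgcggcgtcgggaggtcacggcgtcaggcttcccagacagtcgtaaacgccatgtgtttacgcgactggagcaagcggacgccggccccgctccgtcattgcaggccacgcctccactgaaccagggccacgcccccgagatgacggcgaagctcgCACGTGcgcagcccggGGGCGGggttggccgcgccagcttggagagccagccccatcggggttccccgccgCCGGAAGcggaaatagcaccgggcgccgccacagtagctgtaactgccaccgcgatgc
The ABCE1 window (GC content 59.7%) held none of the 3 motifs, and the ABCF1 window (68.7%) held each of them once. The windows of these 2 genes thus had none of the motifs in common.

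The effect of SGI-7079 differed between the lines for 6 of the 29 members, 3 with a positive and 3 with a negative difference (MV411 minus MOLM13), where 8.85% and 11.8% of all genes tested passed in these directions. ABCA7 rose more in MV411, ABCC4 had opposite directions, ABCD3 fell less in MV411, ABCD4 rose less in MV411, and ABCE1 and ABCF1 fell more in MV411. None of these 6 differences was beyond 1 on the log2 scale, compared with 1.80% and 1.81% of all genes higher and lower. The number with a negative difference was 8 without the second DMSO library of either line, 7 without the first treated library of either line, 5 without the first DMSO library of either line or the second treated MOLM13 library and 1 without the third treated MV411 library. DESeq2 gave 5. The MV411 values and these differences shift with the libraries used: without any 1 of 9 libraries, the MV411 fold changes of all genes fell by a median of 0.073 to 0.076.

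**Figure D4:**
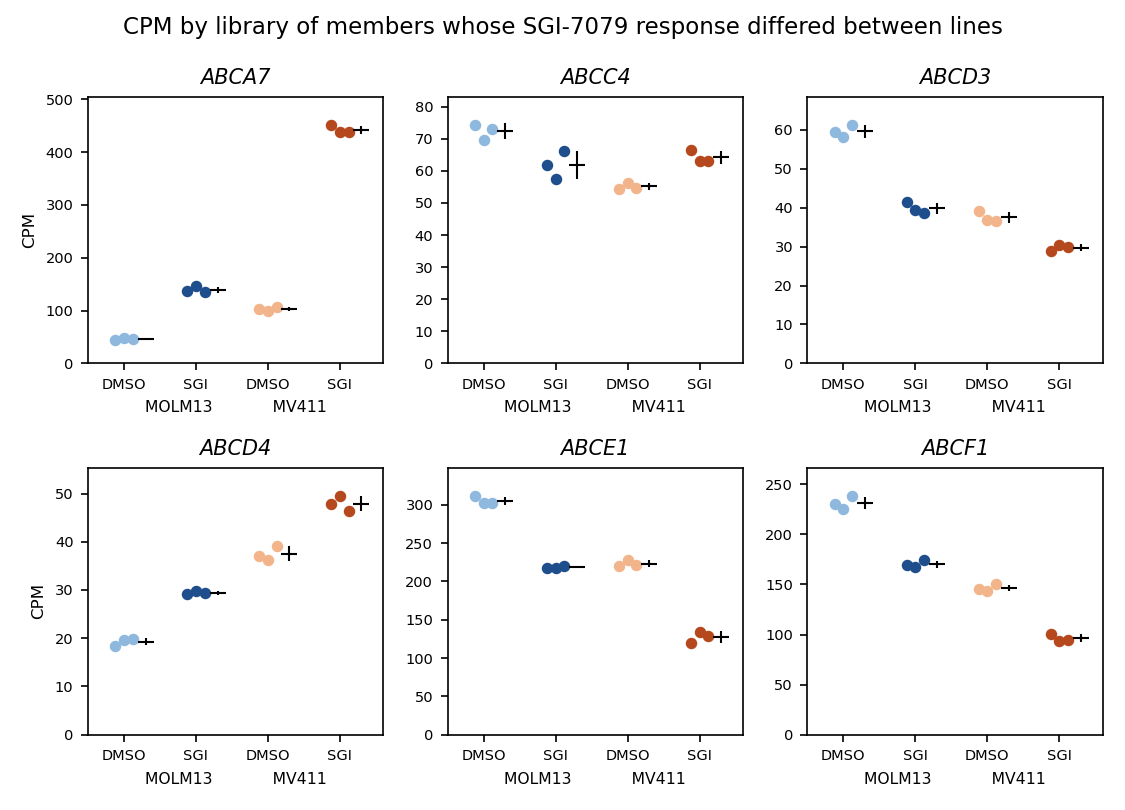
CPM in each library for members whose SGI-7079 effect differed between MOLM13 and MV411; points are libraries, and the black mark is the mean ± SD of the 3 libraries of a group. In MOLM13, ABCC4 lies at 69.6 to 74.3 CPM in DMSO and 57.6 to 66.1 CPM treated; in MV411 it lies at 54.5 to 56.4 CPM and 63.0 to 66.5 CPM.

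Untreated, the lines already differed at 19 of the 29 members. In DMSO, 11 were higher and 8 lower in MV411 than in MOLM13 at an adjusted p under 0.05, beside 27.7% and 26.5% of all genes tested. Beyond 1 on the log2 scale, 4 members were higher and 1 lower, beside 12.9% and 9.57%. ABCA3 had the largest gap, 6.12 ± 0.51 (adjusted p = 1.94e-07), and ABCD2 (3.32 ± 0.51; adjusted p = 8.55e-05), ABCA5 (2.20 ± 0.19; adjusted p = 2.36e-07) and ABCA7 (1.17 ± 0.04; adjusted p = 2.67e-11) followed. The ABCA3 gap was 7.10 without the second MOLM13 DMSO library. ABCC6 was the member that was lower, by -3.37 ± 0.25 (adjusted p = 5.03e-08). In subfamily D, ABCD4 was also higher in MV411, by 0.96 ± 0.05, and ABCD3 was lower, at -0.67 ± 0.05. Among the abundant members ABCA2 was at -0.96 ± 0.04, ABCF1 at -0.66 ± 0.04, ABCE1 at -0.45 ± 0.04, ABCB10 at 0.29 ± 0.05, ABCF3 at 0.23 ± 0.06 and ABCF2 at -0.17 ± 0.04, all of which passed. The drug exporters ABCC5 and ABCC1 were higher in MV411, by 0.85 ± 0.07 and 0.33 ± 0.06, and ABCC10 and ABCC4 were lower, at -0.57 ± 0.05 and -0.39 ± 0.05. ABCC2 passed at 0.46 ± 0.16 (adjusted p = 0.0285) and was lost without the first or second MOLM13 DMSO or the first or the third MV411 DMSO library, with values from 0.39 to 0.54 over all libraries left out. The DMSO libraries also serve in the treatment comparisons, so these baseline values are not independent of them.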

How the data were processed

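Poly(A)-selected RNA was made into 12 strand-marked libraries, 3 per cell line and treatment, and read in pairs of 150 bases, per the labels' protocols. The submitters' processing notes name the build hg38, edgeR and DESeq2 (no versions), StringTie 2.1.6, HISAT2 2.2.1 and cutadapt 1.9. The handling of strand and of multi-gene reads in counting is not given in the sources used, so overlapping genes are uncertain. Per the file headers, the deposited values are raw counts for each gene. The same table holds FPKM computed by the authors, used here only to describe levels between genes and the levels of cell type markers. Each value column matched 1 library by name.

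Counts were tested with edgeR 4.0.16 (R 4.3.3, quasi-likelihood test, TMM scaling, filterByExpr with a minimum count of 10), with 1 mean per line and treatment over the 12 libraries and Benjamini-Hochberg adjustment over 21438 genes. The compound was contrasted with DMSO within each line, and further contrasts were the difference of these effects and MV411 against MOLM13 in DMSO. The SE is the absolute log2 fold change over the square root of the F statistic. CPM uses TMM library sizes. No replicate pair was within sampling noise: their chi-square was 9.31 to 13.74 per degree of freedom. Alternatives were DESeq2 1.42.0, RLE scaling, no filter, a replicate block, only the groups compared, and leaving out each library. The edgeR test was tried on simulated counts.

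The members and the gene lists (other ABC symbols, regulators, LXR targets, sterol genes, NRF2 targets, glutathione, peroxisome, iron-sulphur and haem, translation partners, cell type markers) were chosen with earlier results of these data known. A further 2 genes that meet the rule for members are not reported here; they stay in the test over all genes. Values in every library are given for members called in a contrast at 1 CPM or more in the higher group and for the 8 with the highest mean FPKM, and for ABCC4, ABCD3, ABCD4, ABCA9 and ABCB6 where the text turns on them. List genes are at most 4 per list, from those with the smallest adjusted p. Members with under 300 counts in total get no fold change. Sequences are RefSeq promoters of GRCh38.p14, searched on both strands.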

Additional observations from a re-analysis of the deposited data

Results flagged for a closer look

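The effect of SGI-7079 differed between MV411 and MOLM13 for 6 members, by the test of the difference itself (edgeR, adjusted p under 0.05). On the log2 scale, MV411 minus MOLM13, the differences were 0.50 for ABCA7, 0.44 for ABCC4 and 0.24 for ABCD3. They were -0.25 for ABCD4, -0.33 for ABCE1 and -0.16 for ABCF1. ABCA7, ABCC4 and ABCE1 passed without any 1 of the 12 libraries, with differences of 0.39 to 0.53, 0.32 to 0.46 and -0.42 to -0.34. ABCD3, ABCD4 and ABCF1 lost the call without 9, 2 and 3 of the 12 libraries.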

How the results depend on the processing

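Of 1366 log2 fold changes of members under an alternative, 1269 kept their direction and their side of the threshold, 45 lost and 23 gained a call with the same direction, and 29 changed sign, none of which had passed. Leaving out each library in turn gave 0 to 1 members lower in MV411 (ABCF2 is near the fold of that threshold), 1 to 8 members with a negative difference that passed (DESeq2 gave 5), and 0 to 1 lower in the difference, where DESeq2 also gave 1 (ABCA3). The changes of sign were among values near 0. Without each library, ABCA1 in MOLM13 ranged from -0.25 to 0.23, ABCA6 in MV411 from -0.20 to 0.26, ABCB9 from -0.23 to 0.013 in MOLM13 and from -0.51 to 0.19 in MV411, ABCC1 in MV411 from -0.12 to 0.066, ABCC10 in MV411 from -0.030 to 0.097, and ABCC5 in MOLM13 from -0.090 to 0.016. ABCC1 in MV411 was at -0.043 without the filter and at -0.056 with only the groups compared. The MV411 changes of all genes moved by a median of -0.065 with only the groups compared and -0.053 without the filter; the cause was not tested. With the replicate block, 8 members fell in MV411 (with ABCF3), and no other call changed. Same-numbered libraries correlated at -0.023 to 0.079 and others at -0.055 to 0.043. These ranges overlap and show no strong pairing by number, but they do not settle whether the numbers pair libraries. With under about 1 CPM, as for ABCA9 and ABCA10, the counts limit what can be seen.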
